A study of Oryza sativa with 6 samples.

Results

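The genes described here are the cyclins, the cyclin-dependent kinases (CDKs), their KRP inhibitors and the kinesins of rice, measured in flag leaves of a mutant line and of its wild type. They were chosen by name, as every gene with its own probe set on the array whose symbol or RefSeq synonym follows the naming pattern of these families. This gave 72 genes of 17905. They comprise 7 A and B cyclins, 18 other cyclins, 1 B-type CDK, 10 other CDKs, 4 KRP inhibitors, 4 kinesins of the KIN5 and KIN12 families and 28 kinesins of other families.

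RNA came from flag leaves, the leaves just under the panicle, of japonica rice cultivar Zhonghua11. The mutant group holds 3 arrays of an OsSLAC7 T-DNA insertion mutant in this cultivar, and the wild type group holds 3 arrays of the cultivar itself. All plants were untreated and grew in a greenhouse before they were moved to the field, and neither the age of the plants nor the number of insertion lines is stated in the labels. The arrays of a group are labelled as biological replicates, and nothing in the labels ties an array to its own plant. The p-values therefore rest on how much these arrays varied, which may in part be technical.

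Cyclins are the regulatory partners that switch CDKs on, and each class acts at its own point. D-type cyclins with CDKA open the way from growth to DNA synthesis, while A- and B-type cyclins with CDKA and the plant-specific B-type CDKs drive mitosis, after which the B-type cyclins are destroyed. Cyclins C, H, L and T with CDKC, CDKD, CDKE and CDKG mostly serve transcription, splicing or the activation of other CDKs. Kinesins are motors that walk along microtubules or take them apart. They build the spindle and the phragmoplast, the scaffold on which plant cells lay down the new cross wall, and others work in cells that no longer divide. An expanded flag leaf blade has largely stopped dividing.

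Values are log2 levels made by robust multi-array averaging (RMA), so a difference of 1 is a doubling, and differences are mutant minus wild type. A gene was said to rise or fall where its limma adjusted p, taken over all genes, was under 0.05. Over all 17905 genes 21.0% rose and 6.32% fell, and the median gene was 0.10 higher in mutant leaves. Shifting each array by the median of its genes moved that median to -0.12 and lowered every difference by the same amount, so that small positive differences, among them the medians of other CDKs and of DNA replication genes given below, lie under 0 on that scale. Array medians over probe sets lay between 4.58 and 4.67 in mutant leaves and between 4.68 and 4.72 in wild type leaves. The probe sets of the annotation used here name no gene OsSLAC7, so the disrupted gene was not checked. Of 7 leaf blade markers none rose or fell by limma and none had an unadjusted p under 0.05. The Rubisco subunit gene RBCS-C stood at 14.18, 14.22 and 14.20 in mutant leaves and at 14.29, 14.29 and 14.33 in wild type leaves, while RBCS-A stayed between 2.35 and 2.68 in both groups. The mean levels of RBCS-C, OsrcaA1, CAB2R, RCABP89 and RCABP69 lay above at least 99.4% of all genes, and that of RBCS-A above only 1.59%. Whether values so near the top or bottom of the scale could show a change was not tested. No conclusion on leaf tissue was therefore drawn from these markers.

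More members rose than fell in mutant leaves. Of the 72 genes 28 rose (38.9%, against 21.0% of all genes), 2 fell (2.78%, against 6.32%) and 42 did not pass. The share of falls depended on level, as 3.88% of all genes below the median gene level fell and 8.76% of those above it. Of the members 50 lay below that level, of which 1 fell, and 22 lay above it, of which 1 fell. The 6.32% of all genes that fell, given here and with later groups, makes no allowance for level. The median difference of the members was 0.28, and 60 of 72 differences were above 0, as were 11423 of 17905 over all genes. In 33 of the 72 members the 3 mutant arrays lay above the 3 wild type arrays. This was a larger share than the 5771 of 17905 (32.2%) over all genes. In 2 of the 72 they lay below, a smaller share than the 2393 of 17905 (13.4%) over all genes. Among genes below the median gene level this was so in 1 of 50 members and in 772 of 8952 of all genes. With arrays centred on the median of their genes 16 members rose (22.2%, against 10.1% of all genes) and 5 fell (6.94%, against 22.0% of all genes), the members' median was 0.062 and 44 of 72 differences were above 0. The falls then included CYCB1-3, CYCF2-2 and KRP1 beside CYCD4-2 and KIN14K. Without wild type replicate 3 there were 17 rises (23.6%, against 11.9% of all genes).

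The B cyclins CYCB2-2 and CYCB1-1 and the kinesin KIN7D had the 3 largest differences among the 72 members, in an order that changed when single arrays were left out. The mitotic classes are the A and B cyclins, the B-type CDK and the KIN5 and KIN12 kinesins. Of their 12 genes 5 rose (41.7%, against 21.0% of all genes) and none fell (against 6.32% of all genes). The share that rose was close to that of the 60 members of other classes, of which 23 rose (38.3%) and 2 fell (3.33%). All 12 mitotic genes lay below the median level, where 3.88% of all genes fell. An unadjusted p under 0.05 by limma was met by 7 of the 12 and by 7259 of all 17905 genes. The median difference of the 12 was 0.45, against 0.25 in the other classes. The 5 rising genes were the B cyclins CYCB2-2 and CYCB1-1, the kinase CDKB2-1 and the kinesins KIN12C and KIN5C. All but KIN5C also passed with any 1 array left out. In whole leaves, more dividing cells and more RNA per cell cannot be told apart.

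CYCB2-2 is a B2-type cyclin, and in rice its protein pairs with CDKB2-1 at mitosis. It stood at 5.59, 5.21 and 5.29 in mutant leaves, against 3.63, 4.23 and 4.13 in wild type leaves. Every mutant array lay well above every wild type array. The difference was 1.37 (SE 0.17, limma adjusted p = 0.00147), or 2.58-fold. A separate probe set of the gene, one that may bind related transcripts, read 3.92, 4.24 and 3.90 in mutant leaves and 3.29, 3.07 and 3.43 in wild type leaves, again without overlap. Its difference was smaller, at 0.76 (limma adjusted p = 0.0101 over all probe sets).

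CYCB1-1 (LOC4327547), a B1-type cyclin of the step into mitosis, read 6.34, 6.04 and 5.60 in mutant leaves and 4.58, 4.76 and 4.61 in wild type leaves. The groups were apart by more than either group's own range. The difference of 1.34 (SE 0.18, limma adjusted p = 0.00178) amounts to 2.54-fold. CDKB2-1, the plant-specific kinase whose transcript is made around mitosis, read 5.48, 5.13 and 4.92 in mutant leaves, against 4.31, 4.48 and 4.53 in wild type leaves. It was higher in each mutant array than in any wild type array, by 0.74 on average (SE 0.14, limma adjusted p = 0.00944).

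The other A and B cyclins did not pass. CYCB2-1, the closest namesake of CYCB2-2, differed by 0.49 (SE 0.19, limma adjusted p = 0.0997) and CYCA2-1 by 0.41 (SE 0.14, limma adjusted p = 0.0661). In both genes the lowest mutant array still lay above the highest wild type array, at 4.30 against 4.28 for CYCB2-1 and at 4.23 against 4.21 for CYCA2-1. CYCA3-2 (0.18) and CYCA1-4 (0.18), of the cyclin type that acts in DNA synthesis and early mitosis, overlapped between groups. CYCA1-4 read 6.40, 5.99 and 5.72 in mutant leaves and 5.98, 5.66 and 5.93 in wild type leaves, so that only mutant replicates 1 and 2 reached above the wild type range. CYCB1-3 (LOC4326914), which RefSeq also lists under the name CycB1-1, was at -0.10 (SE 0.08, limma adjusted p = 0.356). This gene and LOC4327547 therefore share a name in the annotation but not a difference of the same sign.

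KIN12 kinesins sit at the phragmoplast in Arabidopsis. KIN12C read 4.61, 4.59 and 4.64 in mutant leaves, against 3.77, 3.98 and 3.39 in wild type leaves. The mutant arrays were nearly alike while the wild type arrays were spread. It rose by 0.90 (SE 0.14, limma adjusted p = 0.00399), whereas KIN12E differed by 0.24 (SE 0.20, limma adjusted p = 0.400) with overlapping groups. KIN5 kinesins cross-link spindle microtubules and push them apart. KIN5C read 5.22, 5.39 and 4.89 in mutant leaves and 4.34, 4.86 and 4.54 in wild type leaves. Its lowest mutant array lay only just above its highest wild type array, and it rose by 0.59 (SE 0.17, limma adjusted p = 0.0369). Without mutant replicate 1 or 2, or without wild type replicate 1 or 3, KIN5C did not pass, with adjusted p between 0.085 and 0.102. KIN5A differed by 0.18 and did not pass.

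**Figure D1:**
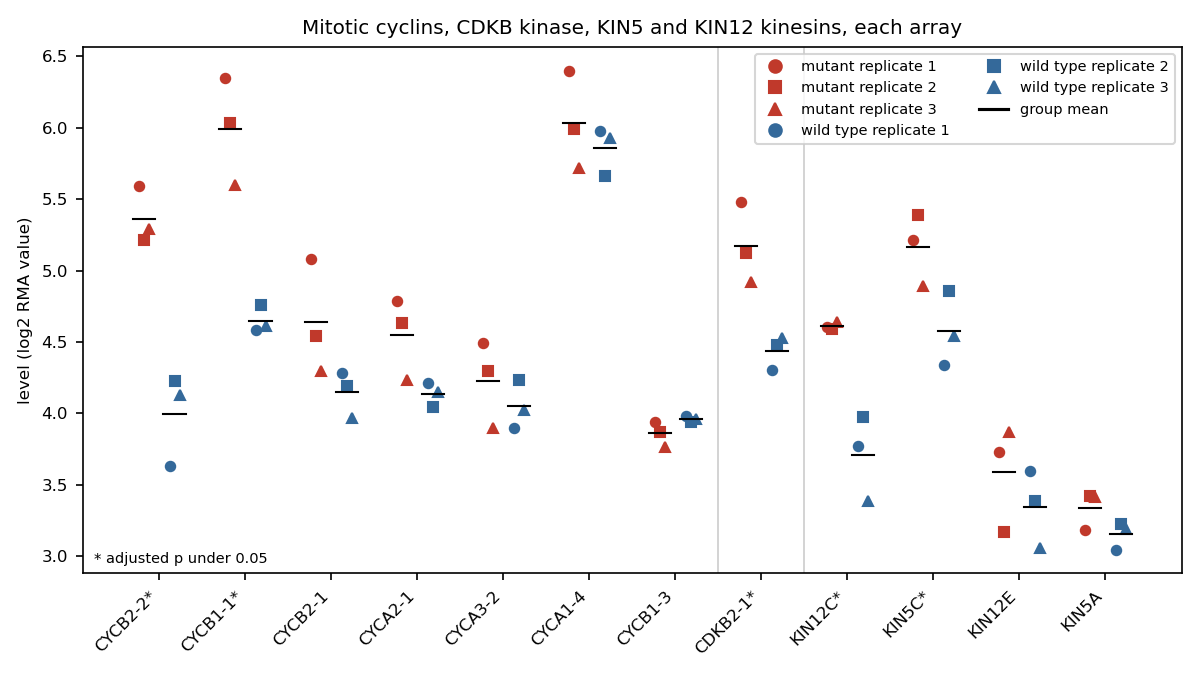
Log2 RMA level (vertical axis) of the 12 members of the mitotic classes in each array, with the 3 mutant arrays left of the 3 wild type arrays, a short line for the group mean and a star where the adjusted p was under 0.05. CYCB2-2, CYCB1-1, CDKB2-1 and KIN12C show groups well apart, while CYCA3-2, CYCA1-4, KIN12E and KIN5A overlap.

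The mutant arrays were not alike in these genes. Mutant replicate 1 had the highest value of the 3 mutant arrays in all 7 A and B cyclins and in CDKB2-1, and in none of the 4 KIN5 and KIN12 kinesins. Over all genes it was the highest mutant array in 55.5%. The same held for all 4 KRP inhibitors and, of the lists given below, for all 5 genes of mitotic control and 24 of 34 DNA replication genes. The median over genes was 7.60 in mutant replicate 1, against 7.42 and 7.40 in mutant replicates 2 and 3. The mean level of the 7 A and B cyclins was 5.23, 4.94 and 4.69 in mutant replicates 1, 2 and 3, against 4.37, 4.44 and 4.39 in the wild type arrays. That of the 4 kinesins was 4.18, 4.14 and 4.20 in mutant leaves and 3.69, 3.86 and 3.54 in wild type leaves. Without mutant replicate 1, CYCB2-2, CYCB1-1, CDKB2-1 and KIN12C still rose, and the median of the 12 mitotic genes was 0.28. What sets mutant replicate 1 apart was not tested.

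Of 28 kinesins of other families 10 rose (35.7%, against 21.0% of all genes), 1 fell (3.57%, against 6.32%) and 17 did not pass. Their median difference was 0.32, and 25 differences were above 0. With arrays centred on the median of their genes 6 of the 28 rose, as did 10.1% of all genes. The largest rise was that of KIN7D, also listed as K16, of the family that includes the tobacco motor NACK1 of the growing cross wall. KIN7D read 5.38, 4.85 and 5.01 in mutant leaves, against 3.92, 3.86 and 3.58 in wild type leaves. The groups were far apart, with a difference of 1.30 (SE 0.15, limma adjusted p = 0.00111), or 2.46-fold. KIN7K of the same family read 6.19, 5.84 and 5.61 in mutant leaves and 4.74, 4.89 and 5.23 in wild type leaves, and rose by 0.92 (SE 0.18, limma adjusted p = 0.00841). KIN7A, the gene annotated as rice NACK, was at -0.03 and did not pass, with values between 3.52 and 3.77 in mutant leaves and between 3.49 and 3.81 in wild type leaves. KIN7C (0.23), KIN7J (0.23), KIN7F (0.13) and KIN7L (0.02) did not pass either.

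In the KIN13 family, whose motors take microtubules apart, KIN13B read 7.46, 7.40 and 7.18 in mutant leaves, against 6.22, 6.49 and 6.61 in wild type leaves. Each mutant array lay above each wild type array, and the rise was 0.91 (SE 0.12, limma adjusted p = 0.00204). The gene has a single probe set, of a type that can bind related transcripts. KIN13A, known as SRS3 from a rice mutant with small round seeds, differed by 0.33 (SE 0.12, limma adjusted p = 0.0721) and did not pass. Its probe sets differed by 0.33 and 0.47.

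KIN10C read 4.70, 4.30 and 4.23 in mutant leaves and 3.55, 3.83 and 3.38 in wild type leaves. The groups did not overlap, and it rose by 0.82 (SE 0.16, limma adjusted p = 0.00875). KIN10A, the phragmoplast kinesin STD1 of rice, read 3.60, 4.15 and 4.05 in mutant leaves and 2.87, 3.999 and 3.999 in wild type leaves. Wild type replicate 1 stood more than 1 unit under the other wild type arrays in this gene, and the difference of 0.31 (SE 0.31, limma adjusted p = 0.480) did not pass. Without wild type replicate 1 it turned to -0.065. KIN10B was 0.25 higher, without overlap between groups but short of the threshold. KIN4A, known as GDD1, whose loss shortens cells and stature in rice, rose by 0.46 (SE 0.11, limma adjusted p = 0.0199), and lost the call without 2 of the 6 arrays, 1 at a time. KIN8B read 5.47, 4.87 and 4.79 in mutant leaves and 4.38, 4.18 and 4.01 in wild type leaves, a rise of 0.85 (SE 0.19, limma adjusted p = 0.0146). This came from a probe set that can bind related transcripts, and the gene's other probe set, which stayed between 1.93 and 2.08 in all 6 arrays, differed by 0.00.

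The KIN14 family holds motors that walk to the minus end of the microtubule. Of its 14 genes 4 rose (28.6%) and 1 fell (7.14%), shares not far from the 21.0% and 6.32% of all genes. KIN14C read 4.29, 3.53 and 3.64 in mutant leaves, against 2.80, 3.09 and 2.73 in wild type leaves. Mutant replicate 1 lay clearly above the other 2 mutant arrays, and all 3 were above the wild type arrays, with a rise of 0.95 (SE 0.20, limma adjusted p = 0.0126). KIN14M read 7.13, 7.10 and 7.27 in mutant leaves and 6.87, 6.22 and 6.43 in wild type leaves, and rose by 0.66 (SE 0.16, limma adjusted p = 0.0201). The call on KIN14M was lost when mutant replicate 3, or wild type replicate 2 or 3, was taken out. KIN14N rose by 0.46 and KIN14A by 0.41, and of the 6 fits that leave out an array KIN14N passed in 5 and KIN14A in 1. Of the better known members, KIN14I, the calmodulin-binding kinesin KCBP, differed by 0.37 (limma adjusted p = 0.134), and KIN14Q, the actin-binding OsKCH1, by 0.10 (limma adjusted p = 0.635), so neither passed.

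KIN14K was the only kinesin to fall. Its chosen probe set read 8.33, 8.34 and 8.28 in mutant leaves and 8.63, 8.74 and 8.76 in wild type leaves, a difference of -0.39 (SE 0.07, limma adjusted p = 0.00795). The groups did not overlap and each was tight. The gene's other probe sets differed by -0.17 and 0.43 and did not pass, and with their mean, or without probe sets of the type that can bind related transcripts, KIN14K did not fall. KIN14L read 9.50, 9.15 and 9.58 in mutant leaves and 9.66, 9.33 and 9.44 in wild type leaves, with overlapping groups and a difference of -0.07.

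**Figure D2:**
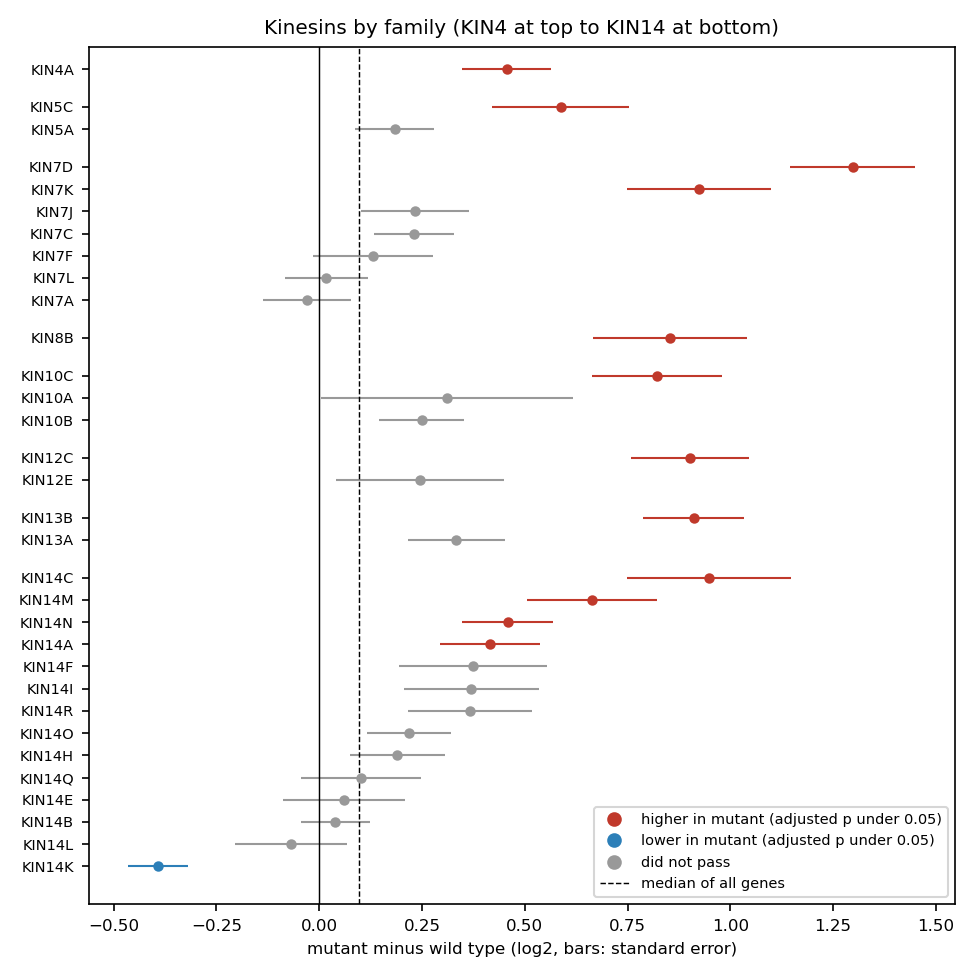
Difference of mutant minus wild type in log2 units (horizontal axis) for the 32 kinesins, grouped by family from KIN4 at the top to KIN14 at the bottom, with bars for the standard error. Rising genes are red, the falling one blue and those that did not pass grey, and the dashed line is the median of all genes at 0.10. KIN7D lies farthest right at 1.30, and KIN14K at -0.39 is the only blue point.

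Among the 18 cyclins outside the A and B classes 7 rose (38.9%, against 21.0% of all genes) and 1 fell (5.56%, against 6.32%). Their median difference was 0.25. Without mutant replicate 2 or without wild type replicate 3 there were 3 rises, and without wild type replicate 2 there were 4. Of all genes 20.3%, 11.9% and 13.6% rose in these fits, in that order. Of 9 D cyclins, which bind the retinoblastoma protein at the start of the cycle, CYCD4-1, CYCD5-1 and CYCD3-2 rose and CYCD4-2 fell. Rises made up 33.3% of the 9 and falls 11.1%, against 21.0% and 6.32% of all genes. CYCD4-1 read 5.26, 5.31 and 4.97 in mutant leaves, against 4.23, 4.24 and 4.25 in wild type leaves. The wild type arrays were almost identical and far below the mutant arrays, and the rise was 0.94 (SE 0.10, limma adjusted p = 0.000801). CYCD5-1 read 5.54, 5.71 and 5.35 in mutant leaves and 5.11, 5.01 and 4.67 in wild type leaves, and rose by 0.60 (SE 0.14, limma adjusted p = 0.0183).

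CYCD4-2 went the other way from its namesake, with 6.40, 6.27 and 6.24 in mutant leaves and 6.69, 6.79 and 6.53 in wild type leaves. The groups did not overlap, and the difference was -0.36 (SE 0.09, limma adjusted p = 0.0250). The call was lost without mutant replicate 2 or 3 or wild type replicate 1 or 2, with adjusted p between 0.0571 and 0.0919. CYCD3-2 rose by 0.53 (SE 0.14, limma adjusted p = 0.0313) and passed in 1 of the 6 fits that leave out an array. CYCD5-2 (0.30), CYCD6-1 (0.19), CYCD5-3 (0.06), CYCD2-2 (-0.07) and CYCD3-1 (-0.13) did not pass.

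P-type cyclins are relatives of a yeast cyclin of phosphate signalling. CYCP3-1 read 6.98, 6.29 and 6.22 in mutant leaves and 5.99, 5.85 and 5.70 in wild type leaves, and rose by 0.65 (SE 0.20, limma adjusted p = 0.0458). CYCP4-1 read 5.55, 5.80 and 5.42 in mutant leaves and 5.22, 5.11 and 4.58 in wild type leaves, and rose by 0.62 (SE 0.18, limma adjusted p = 0.0377). Both lay close to the threshold. CYCP3-1 did not pass without mutant replicate 2 or any 1 wild type array, with adjusted p up to 0.132. Its difference was 0.41 without mutant replicate 1, where it still passed. CYCP4-1 passed only in the fit without wild type replicate 1 among the 6 that leave out an array. CYCP2-1 differed by 0.25 and did not pass.

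Of the cyclins that serve transcription and splicing, CYCL1-1 rose by 0.44 (SE 0.07, limma adjusted p = 0.00500) and CYCT1-1 by 0.36 (SE 0.10, limma adjusted p = 0.0320). CYCT1-1 passed in 2 of the 6 fits that leave out an array. CycT1;2 (0.25), CycC1;1 (0.09) and CYCH1-1 (-0.02) did not pass, nor did CYCF2-2 (-0.20). CycC1;1, the cyclin of the Mediator kinase module, read 9.78, 9.53 and 9.74 in mutant leaves and 9.69, 9.51 and 9.59 in wild type leaves, and both of its probe sets overlapped between groups.

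Of the 10 CDKs outside the B class 4 rose (40%, against 21.0% of all genes) and none fell (against 6.32%). An unadjusted p under 0.05 by limma was met by 4 of them and by 7259 of all 17905 genes. Their median difference was 0.13, near the 0.10 of all genes. Leaving out wild type replicate 2 or 3 gave 2 rises, where 13.6% and 11.9% of all genes rose. The A-type kinases, the partners of most cell cycle cyclins, did not pass, with CDKA-1 at -0.05 (SE 0.10, limma adjusted p = 0.722) and CDKA-2 at -0.06 (SE 0.09, limma adjusted p = 0.643). CDKA-1 read 7.87, 7.75 and 7.71 in mutant leaves, against 7.82, 7.99 and 7.67 in wild type leaves, with complete overlap of the groups. All 5 probe sets of the pair differed by no more than 0.16 in size.

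CDKF-1, a plant-specific kinase that in Arabidopsis activates other CDKs, read 10.16, 10.07 and 10.04 in mutant leaves and 9.44, 9.45 and 9.39 in wild type leaves. Both groups were tight and far apart for their spread, and the rise was 0.67 (SE 0.07, limma adjusted p = 0.000787). CDKF-3 rose by 0.42 (SE 0.10, limma adjusted p = 0.0174), and CDKE-1, the kinase of the Mediator module, by 0.31 (SE 0.08, limma adjusted p = 0.0274). CDKE-1 passed in 2 of the 6 fits that leave out an array, and CDKF-3 in 4. CDKC-1 (0.07), CDKD-1 (0.10), CDKF-4 (0.08) and CDKG-1 (0.15) did not pass.

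CDKG-2, of the class that in Arabidopsis acts on splicing with L-type cyclins, read 10.34, 10.37 and 10.25 in mutant leaves and 9.93, 9.79 and 9.74 in wild type leaves on its chosen probe set. It rose there by 0.50 (SE 0.08, limma adjusted p = 0.00463). The gene's other 2 probe sets differed by -0.27 and -0.04 and did not pass (limma adjusted p = 0.134 and 0.854 over all probe sets), and with the mean of all 3 the difference was 0.06 (limma adjusted p = 0.594). The rise therefore belongs to the chosen probe set rather than to all probes of the gene.

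KRP proteins bind and inhibit CDK and cyclin pairs. Of 4 genes 2 rose (50%, against 21.0% of all genes) and none fell (against 6.32%). An unadjusted p under 0.05 by limma was met by 3 of them and by 7259 of all 17905 genes. KRP6 read 4.62, 4.47 and 4.03 in mutant leaves and 2.99, 3.49 and 3.81 in wild type leaves, and rose by 0.94 (SE 0.22, limma adjusted p = 0.0203). The lowest mutant array was close to the highest wild type array, and the gene's other probe set was at -0.03. KRP4 rose by 0.32 (SE 0.08, limma adjusted p = 0.0274), while its other probe set was at -0.22 and did not pass. KRP5 differed by 0.25 (limma adjusted p = 0.0750) and KRP1 by -0.14 (limma adjusted p = 0.407). KRP1 read 9.68, 9.26 and 9.60 in mutant leaves and 9.70, 9.64 and 9.62 in wild type leaves, so that only mutant replicate 2 fell clearly short. Without mutant replicate 1 neither KRP6 (limma adjusted p = 0.0551) nor KRP4 (0.0622) passed. Leaving out mutant replicate 2, or any 1 wild type array, left 1 KRP gene past the threshold. That gene was KRP4 without mutant replicate 2 and KRP6 without a wild type array. Of all genes 11.9% to 20.3% rose in these fits. KRP4 thus passed in 1 of the 6 fits that leave out an array, and KRP6 in 4. With arrays centred on the median of their genes KRP1 fell, by 0.35 (limma adjusted p = 0.0311).

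**Figure D3:**
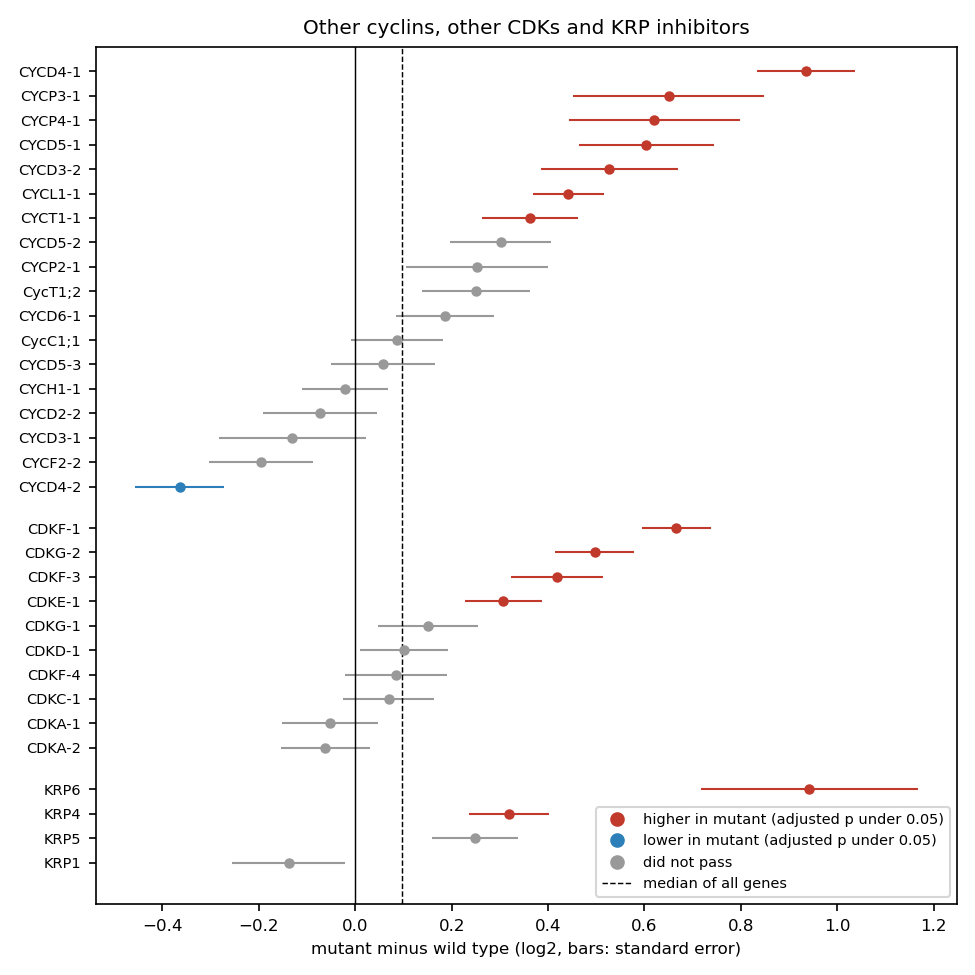
Difference of mutant minus wild type in log2 units (horizontal axis) for the 18 other cyclins, 10 other CDKs and 4 KRP inhibitors, from top to bottom, with bars for the standard error. Red genes rose, the blue gene CYCD4-2 fell, grey genes did not pass, and the dashed line marks the median of all genes at 0.10. CYCD4-1, CDKF-1 and KRP6 lead their classes at 0.94, 0.67 and 0.94.

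Other genes of the cell cycle were read from lists matched by name. Tubulins, the subunits of microtubules on which kinesins walk, rose in 7 of 11 cases (63.6%, against 21.0% of all genes) and fell in none. Over all genes 6.32% fell. The tubulin median difference was 0.67. The beta-tubulin TUBB1 read 8.78, 8.65 and 8.72 in mutant leaves, against 7.03, 7.28 and 7.26 in wild type leaves. It rose by 1.53 (SE 0.09, limma adjusted p = 6.84e-05), and TubA (LOC4350197), OsTUB6 and TUBB2 rose by 0.89, 0.90 and 0.76. The 34 genes matched by names of DNA replication were at a median of 0.11, near that of all genes. Of their differences 29 were above 0, as were 11423 of 17905 over all genes. The level of 25 of the 34 lay below the median gene. MCM8 (2.51), MCM5 (2.53), MCM3 (2.79), OsMCM6 (2.80) and MCM7 (3.02) had mean levels among the lowest, and none of them passed. In this list 6 rose and 1 fell, shares of 17.6% and 2.94%, against 21.0% and 6.32% of all genes. The match is doubtful for the topoisomerase genes TOP6A and OsTOP6A2, also listed as OsSPO11-3 and OsSPO11-2, and for TOP6B and TOP3B. Of these only TOP3B rose, by 0.37. The helicase subunit MCM2 (0.64), the polymerase subunit POLD1 (0.41), the clamp loader subunit RFC2 (0.37) and the sliding clamp PCNA (0.36) rose. The origin recognition gene ORC3 fell by 0.35. It read 2.15, 2.25 and 2.05 in mutant leaves and 2.46, 2.58 and 2.45 in wild type leaves. The mean level of ORC3 lay above only 0.592% of all genes. Signal over background was not known, so whether the low values of ORC3 and of these MCM genes reflect their transcripts was not tested. When mutant replicate 1 was left out there were 3 rises in this list, as there were when wild type replicate 1 or 2 was. Of all genes 14.7%, 16.7% and 13.6% rose in these fits, in that order. Neither of 2 retinoblastoma genes passed by limma, 1 of them with an unadjusted p under 0.05. CenH3, the histone of centromeres, rose by 0.63 (SE 0.16, limma adjusted p = 0.0224).

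Of 5 genes matched by names of mitotic control 2 rose (40%, against 21.0% of all genes) and none fell (against 6.32%). The match is doubtful for 3 of them, SMR1, whose role is not given here, and CDC25.1 and CDC25.2, which are also listed as ACR2.1 and ACR2.2, the names of arsenate reductases. CDC25.1 (-0.22) and CDC25.2 (-0.18) did not pass, although their mutant arrays lay below their wild type arrays. MYB3R-2, of the MYB factors that bind promoters of mitotic genes, rose by 0.46 (SE 0.14, limma adjusted p = 0.0439). A gene named SMR1 (LOC4349289) read 7.39, 7.05 and 6.84 in mutant leaves, against 5.14, 5.44 and 5.25 in wild type leaves. The groups were far apart, and its rise of 1.81 (SE 0.15, limma adjusted p = 0.000243) exceeded that of any cyclin, CDK, KRP or kinesin measured. CKS1, a small partner of CDKs, differed by 0.23 and did not pass. Only 1 rise was left in this list when mutant replicate 1 or 3, or wild type replicate 2 or 3, was taken out. In those fits 11.9% to 17.4% of all genes rose.

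Markers of tissues other than leaf blade were read in the same arrays. Of 26 genes matched by names of panicle and flower markers 13 rose (50%, against 21.0% of all genes) and none fell (against 6.32%). The other 13 did not pass, and the median difference was 0.26. Among them OsZEP1 (-0.21), is by its other names the zeaxanthin epoxidase of abscisic acid synthesis and no panicle marker. Their mean level was 6.07, 5.99 and 5.89 in mutant leaves and 5.51, 5.55 and 5.50 in wild type leaves, so the groups did not overlap. The floral organ gene OsMADS45 read 5.16, 5.25 and 5.24 in mutant leaves, against 3.71, 3.57 and 3.24 in wild type leaves, and rose by 1.71 (SE 0.12, limma adjusted p = 0.000152). OsMADS24 (1.57), OsMADS6 (1.04) and OsMADS2 (1.02) also rose. Differences were under 0 in 7 of the 26 genes, and in 4 of these, OsZEP1, EAT1 (-0.19), OsMADS15 (-0.16) and OsMADS14 (-0.10), the mutant arrays lay below the wild type arrays, although none passed. Mutant replicate 1 was the highest mutant array in 12 of the 26 genes.

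Of 9 genes matched by names of meristem markers 3 rose (33.3%, against 21.0% of all genes) and none fell (against 6.32%). The other 6 did not pass, and the median difference was 0.16. The mean level of the 9 was 5.95, 5.86 and 5.84 in mutant leaves and 5.55, 5.55 and 5.58 in wild type leaves. OSH1, the homeobox gene that marks the shoot meristem, rose by 1.47 (SE 0.22, limma adjusted p = 0.00294). It read 6.94, 6.67 and 6.20 in mutant leaves and 4.77, 5.37 and 5.24 in wild type leaves. Its probe set is of the type that can bind related transcripts. OSH71 rose by 1.10 and OSH45 by 0.23, whereas FON1 and LAX1 differed by -0.02 and 0.08 and did not pass. The match is doubtful for OSH45, which stood at means of 9.61 in mutant and 9.38 in wild type leaves, above 80.5% of all genes. Without wild type replicate 1 there was 1 rise in this list, where 16.7% of all genes rose. Mutant replicate 1 was the highest mutant array in 4 of the 9 genes. The part of such tissue in the differences of the mitotic genes was not tested.

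**Figure D4:**
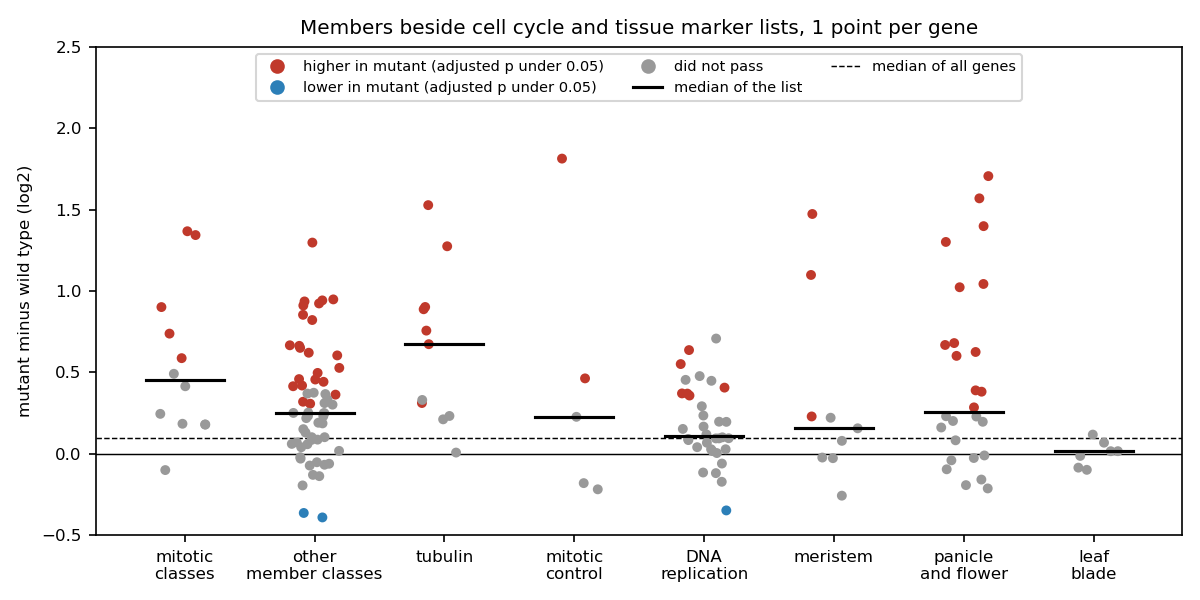
Difference of mutant minus wild type in log2 units (vertical axis), 1 point per gene, for the mitotic and other member classes and for lists of cell cycle genes and tissue markers, with a bar at each median and a dashed line at the median of all genes. The tubulin median of 0.67 and the mitotic median of 0.45 lie above the dashed line at 0.10, the DNA replication median of 0.11 lies on it, and no leaf blade marker is coloured.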

How the data were processed

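The authors' deposited table holds log2 RMA values of 57381 probe sets in 6 arrays, which the submitters' processing notes credit to the affy package. The affy version is not given in the sources used here. Such averaging equalises the distribution of intensities between arrays, so differences in total RNA are removed. The log2 scale was read from the values, between 1.65 and 14.5. Scanner files were not used here, so signal over background was not known, and low values may be compressed. The number of arrays limits the precision.

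The 123 control probe sets were left out. Of the other 57258, 22436 had 1 gene in the platform annotation and 95 had several. All 17905 genes matched RefSeq (assembly ASM3414082v1), which gave synonyms. Where several probe sets matched only that gene, the one brightest on average in the 6 arrays stood for it. Of the 72 members 14 had more than 1 probe set. Probe sets ending in _x_at or _s_at can bind related transcripts, and 6 members rest on one. No filter on low values was used.

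Differences were tested two-sided with lmFit and eBayes of limma 3.58.1, run under R 4.3.3, with no block. The p-values were adjusted over all genes by the Benjamini-Hochberg method, with a threshold of 0.05. With 3 arrays a group, the smallest p of an exact permutation test is 0.1. Same-numbered arrays deviated together with correlations of 0.12, 0.12 and -0.02, so the numbers were not taken to pair them. The fit was tested on simulated data. As alternatives, the scaling, the variance model, the weight of each array, the gene summary, the filter and the threshold were changed, and arrays were left out 1 at a time. Tables and figures used pandas 2.3.3 and matplotlib 3.10.9 in Python 3.11.15.

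The members and lists were chosen with earlier results of these data known. Named with each array's value were all rising or falling mitotic members, the 12 largest differences among the other called members and the member of each class with the highest mean. Of each other list up to 4 called genes with the smallest adjusted p were to be named, and the text adds others chosen after their values were seen. The leaf marker pattern also took RCAR5, an abscisic acid receptor, which was left out after names were read. Promoter and protein sequences were not used here.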

Additional observations from a re-analysis of the deposited data

How the results depend on the processing

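At an adjusted p under 0.01, 12 members rose and 1 fell, with 2 other cyclins, 2 other CDKs, 0 KRP inhibitors and 4 other kinesins up, and 1 rise each in the DNA replication, mitotic control and meristem lists. These were 16.7% and 1.39% of the members, against 9.48% and 2.36% of all genes. With arrays centred on the median of genes, 16 members rose and 5 fell, with 3 other cyclins, 2 other CDKs, 1 KRP inhibitor, 6 other kinesins, 1 DNA replication gene and 1 gene of mitotic control up. On that scale 10.1% of all genes rose and 22.0% fell. The median difference was then 0.062 over members and 0.24 over the mitotic classes. With arrays shifted by the median deviation of genes, 3 other cyclins, 1 KRP inhibitor and 1 gene of mitotic control rose, and the members' median was 0.18. That shift had 15.1% of all genes rising. Centring on the median of probe sets left 1 member falling (1.39%, against 3.58% of all genes). With the brighter genes only, which leave out all 12 mitotic genes, 22 members were tested, 9 rose and 1 fell, with a median of 0.19. That fit had 2 other cyclins, 1 KRP inhibitor, 2 other kinesins, 2 DNA replication genes, 1 gene of mitotic control, 1 meristem marker and 2 panicle markers up. Fewer genes were tested there, and of all the genes tested 29.4% rose and 12.6% fell, against 40.9% and 4.55% of these members. With all probe sets fitted together 1 member fell, and 3 other cyclins, 1 KRP inhibitor, 2 DNA replication genes and 1 gene of mitotic control rose. That fit had 13.8% of all genes rising and 3.46% falling. With the mean of a gene's probe sets 1 member fell, and 2 other CDKs and 1 KRP inhibitor rose, where 20.2% of all genes rose and 6.08% fell. Without probe sets that can bind related transcripts 1 member fell (1.41%, against 6.05% of all genes). Leaving out 1 array at a time gave 17 to 26 members up and 1 to 2 down, 3 to 5 other cyclins, 2 to 4 other CDKs, 0 to 2 KRP inhibitors, 7 to 11 other kinesins and 4 to 7 mitotic genes up, with medians of 0.26 to 0.33 over members and 0.28 to 0.62 over the mitotic classes. The lists then had 3 to 6 DNA replication, 1 to 2 mitotic control, 1 to 2 meristem, 6 to 7 tubulin and 10 to 12 panicle genes up. In these fits 23.6% to 36.1% of the members rose, against 11.9% to 20.3% of all genes, and 3.19% to 5.72% of all genes fell. Of the 30 members called, 15 kept the call with each array left out in turn. Over the alternatives run on them, CYCB1-1 lay between 1.13 and 1.54, CYCB2-2 between 1.06 and 1.48, CDKB2-1 between 0.52 and 0.87 and KIN12C between 0.69 and 1.03, all past the threshold. KIN14K, which fell, was read without probe sets that can bind related transcripts from one that differed by 0.43 and did not pass. Some differences that did not pass lay on both sides of 0, with CYCA1-4 between -0.036 and 0.34, CycC1;1 between -0.13 and 0.16 and KIN14L between -0.28 and 0.062. The replicate block, with numbers that were not taken to pair the arrays, gave 32 members up and 2 down, and 6 mitotic genes up. These were 44.4% and 2.78% of the members, against 20.9% and 5.65% of all genes. The cause of these shifts was not tested. Signal over background was not known.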

Other observations

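By RefSeq order, CYCB1-1 and the beta-tubulin gene TUBB4 lie close together with 2 genes between them. CYCB1-1 differed by 1.34 and TUBB4 by 1.28, and both rose, while LOC4327548 and LOC4327549 between them did not pass. KIN7D, which rose by 1.30, lies with 1 gene between it and the clamp loader gene RFC3, which differed by 0.08 and did not pass. LOC4330896 between KIN7D and RFC3 fell by 0.84 (limma adjusted p = 0.000264). KIN14L and CYCD3-1, with 1 gene between them, differed by -0.07 and -0.13, and neither passed.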
